A study of Mus musculus with 6 samples.

Results

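AP-1 is the name for dimers of basic leucine zipper transcription factors, and 10 of its genes were followed here in mouse lung: Fos, Fosb, Fosl1, Fosl2, Jun, Junb, Jund, Atf3, Batf and Maff. They were chosen by symbol, and the family was proposed with the day differences of several of these genes already known. Their differences between days are therefore given as a description that supports nothing. All 10 had 1 row each among the 29753 rows of the count table. The lungs came from balb/c mice, and 3 libraries were made on day 0 (D0) and 3 on day 14 (D14) after K7M2 cells were placed orthotopically. K7M2 is an osteosarcoma cell line of mouse origin with a high rate of lung metastasis. No D14 group without the cells is among the samples, so tumour, procedure, age and day of collection cannot be told apart. Biological replicates are numbered 1 to 3 in each group, but whether a library is 1 mouse is not stated. The p-values rest on the spread among these libraries alone, part of which may be technical.

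Fos proteins cannot bind DNA as pairs of their own and need a Jun partner, whereas Jun proteins pair with themselves or with Fos, ATF and other zipper proteins. The dimers bind a short palindrome, the AP-1 site, or the related cyclic AMP response element (CRE). Fos, Fosb, Junb and Atf3 are immediate early genes, silent or low at rest and transcribed within minutes of growth factors, stress or injury. Their messengers are short-lived, so their level can also follow how tissue is handled between death and lysis. Jund is expressed steadily in most tissues.

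The promoters are shown because 4 of the genes stood out together at D14. RefSeq start-site windows on GRCm38.p6, from 250 bases before to 50 bases after a start, were matched for 9 of the 10 genes. The 150 bases just before the start are shown for the 4 genes that were highest at D14 relative to D0 (Fos, Fosb, Fosl2, Atf3), for Jun as the family partner that differed little, and for the second of 3 annotated Maff starts, the one with a complete CRE. Capitals mark TGACG, the core of the CRE, on either strand, the complete CRE TGACGTCA, and TGACATCA, a form of the AP-1 site.
Fos, chr12:85473740-85473889, plus strand: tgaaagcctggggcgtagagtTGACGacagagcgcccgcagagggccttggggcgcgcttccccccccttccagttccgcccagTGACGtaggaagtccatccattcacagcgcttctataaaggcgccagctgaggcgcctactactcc
Fosb, chr7:19310046-19310195, minus strand: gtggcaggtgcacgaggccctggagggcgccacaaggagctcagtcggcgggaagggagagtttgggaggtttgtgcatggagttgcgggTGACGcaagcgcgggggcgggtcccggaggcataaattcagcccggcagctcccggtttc
Fosl2, chr5:32136322-32136471, plus strand: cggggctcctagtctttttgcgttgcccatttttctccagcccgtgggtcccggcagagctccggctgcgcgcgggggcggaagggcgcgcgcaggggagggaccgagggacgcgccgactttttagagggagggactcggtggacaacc
Atf3, chr1:191183334-191183483, minus strand: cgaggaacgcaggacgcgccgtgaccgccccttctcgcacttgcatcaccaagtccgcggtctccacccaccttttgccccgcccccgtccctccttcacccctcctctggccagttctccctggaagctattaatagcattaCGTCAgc
Jun, chr4:95052223-95052372, minus strand: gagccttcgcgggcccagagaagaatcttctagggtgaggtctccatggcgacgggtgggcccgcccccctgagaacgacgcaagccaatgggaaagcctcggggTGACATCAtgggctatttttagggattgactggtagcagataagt
Maff, chr15:79347370-79347519, plus strand: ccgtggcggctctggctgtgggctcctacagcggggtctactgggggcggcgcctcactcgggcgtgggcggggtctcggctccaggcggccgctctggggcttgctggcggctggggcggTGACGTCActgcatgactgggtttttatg

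Fos held the CRE core at position −66 and again at position −129 from its start, and the TATA box letters TATAAA, left in lower case, at position −33 (searched on the gene's strand only, and found in 8.32% of all windows). Fosb held the core at position −60, Atf3 at position −7 on the opposite strand, and Maff the complete CRE at position −29. Jun held TGACATCA at position −45. Over the windows of these 9 genes the core was found in 6, those of Fos, Fosb, Junb, Atf3, Batf and Maff. It stood in 20.8% of all 32851 RefSeq windows of that length. A gene counted if any of its windows held the core, and Maff had 3 of the 11 windows. The count of genes and the share of windows are therefore unlike units. The complete CRE, which contains the core, stood in 1.79% of all windows, and TGACATCA in 3.62%, here in the windows of Jun and of the third Maff start. The consensus AP-1 site TGANTCA stood in 7.81% of all windows and the CArG box, the core of the serum response element, in 1.63%. Neither set of letters was in the windows of these genes on either strand. Sequence more than 250 bases before a start was not searched, so the absence says nothing of sites further out. Genes with and without a clear difference between days both carried the core, and Fosl2 had none of the marked letters. The letters describe the sequence and are not evidence of binding. The printed Atf3 start lies 34706 bases downstream of the start of the GENCODE gene, that of Maff 899 bases and that of Fosl2 671 bases downstream. The Jund window, counted among the 9 genes but not printed, belongs to a start 1210 bases upstream of the GENCODE gene. Of the genes not printed, Fosl1 lies on chromosome 19 from 5447547 to 5455946, Jund on chromosome 8 from 70698949 to 70700616 and Batf on chromosome 12 from 85686669 to 85709087.

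The libraries held 14878101 to 17385006 counts. D0 replicate 3 stood apart in its cell make-up: 7 red cell genes summed to 52469 CPM (counts scaled to library size) there against 9242 to 28914 in the other libraries, and 14 macrophage and monocyte markers to 10339 CPM against 4263 to 5905. All 16 lung epithelial markers passed the count filter in what the labels call lung, with a summed level of 39681 to 70453 CPM. The submitters' text on RNA isolation speaks instead of BMDMs, macrophages grown from bone marrow. Of 8 osteoblast lineage markers in the table, the lineage of the implanted tumour, 4 passed the count filter. These were higher at D14 in 3 of 4, none past the threshold, with a summed level of 28.9 to 44.7 CPM at D0 and 44.96 to 51.3 CPM at D14. The other 4 stayed low, with 0 to 2 counts a library for Sp7 and Bglap, 0 to 8 for Bglap2 and 2 to 14 for Sost. The part of these markers in the AP-1 levels was not tested. In bulk lung, fewer cells of a type and less RNA per cell cannot be told apart for any value that follows.

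The Fos side of the family was higher at D14, and the Jun side was nearly level. Fos, Fosb, Fosl2 and Atf3 were each above all D0 libraries in every D14 library, with fitted fold differences of 2.27 to 6.08. Jun was also above in every library, by 1.18-fold. Junb and Jund overlapped between days, as did Maff and Batf. Of the 10 genes, 9 passed the filter on low counts and were tested. None passed an adjusted p of 0.05 in edgeR's quasi-likelihood test, where 0.0339% of all 17686 tested genes did, and 4 had an unadjusted p under 0.05, all higher at D14, beside 5.48% of all tested genes on that side and 12.6% in either direction. DESeq2 on the same counts called 4 of the 9 higher at D14 (Fos, Fosb, Fosl2 and Atf3), beside 1.03% of all genes to which it gave an adjusted p. A range wholly above D0 was found for 5 of the 9 and for 10.9% of all tested genes, and a range wholly below D0 for 0 of the 9 and 10.7% of all. The log2 fold change was positive in 8 of the 9 and in 46.9% of all, with a median of 0.81 against −0.03 over all tested genes. Because the family was picked with these differences known, nothing is read from those counts.

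**Figure D1:**
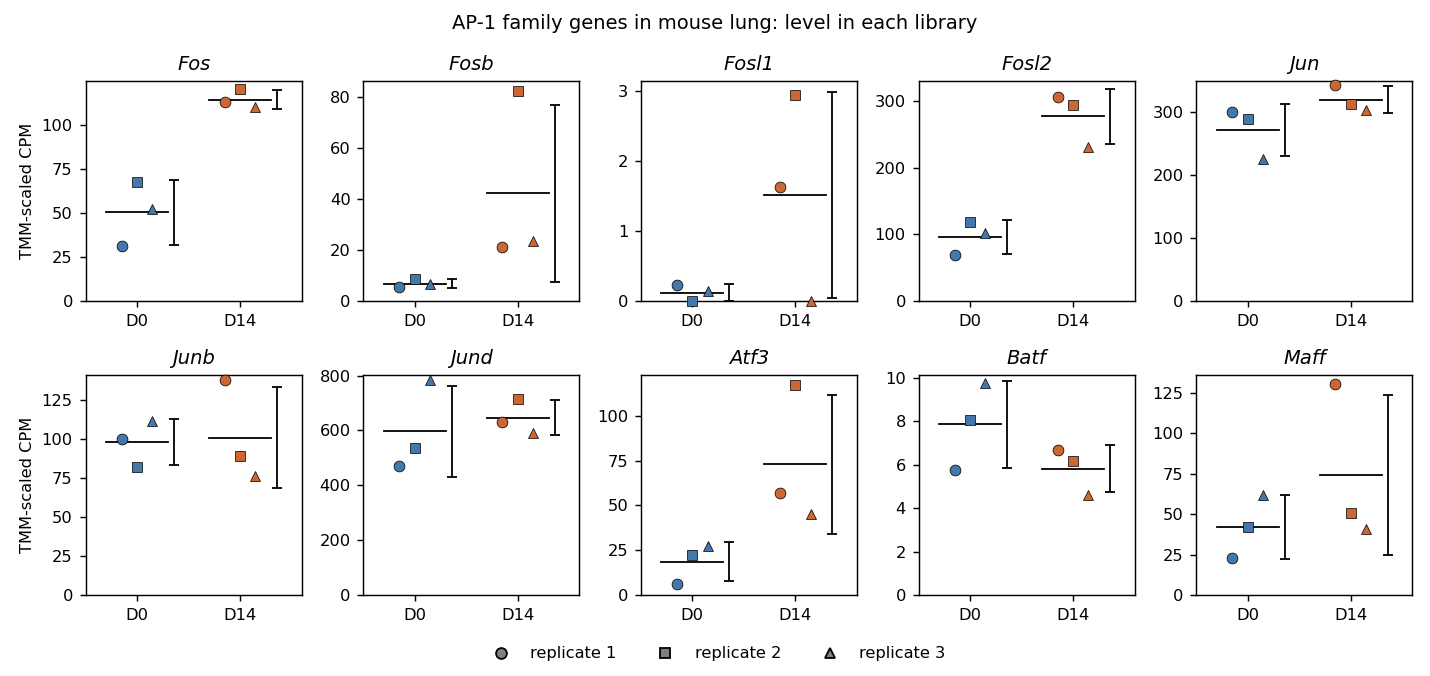
Level of each of the 10 genes in each library, in TMM-scaled CPM (TMM is the scaling factor used between libraries), on axes that start at 0 and differ between genes. Symbols give the replicate, horizontal lines the mean and bars the SD of 3 libraries. Fos, Fosb, Fosl2, Atf3 and Jun have all D14 symbols above all D0 symbols, and the other 5 do not.

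Fos, the founding member and the classic partner of Jun, had 31.2, 67.7 and 52.5 CPM in D0 replicates 1 to 3. At D14 it had 113, 120.3 and 109.9 CPM, so that the days stood well apart and the D14 libraries lay within 1.10-fold of each other. The D0 libraries spread 2.17-fold. Fos had a log2 fold change of 1.18 (SE 0.27; edgeR adjusted p = 0.326), which stayed between 0.93 and 1.45 when each library was left out in turn.

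Fosl2, also called Fra-2, is a later and longer-lived relative of Fos without the strong activation domain of Fos. Its D0 libraries held 69.1, 118 and 101 CPM, and its D14 libraries 305, 294 and 230.1 CPM. The lowest D14 library was far above the highest D0 library. Its log2 fold change of 1.52 (SE 0.23; edgeR adjusted p = 0.121) had the smallest p of the family, at rank 33 among all tested genes. Leaving out single libraries gave 1.34 to 1.70.

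Fosb, whose long form resembles Fos and whose short form lacks the activation domain, was scarce at D0, with 5.47, 8.82 and 6.60 CPM. At D14 it had 21.1, 82.4 and 23.6 CPM. All 3 D14 libraries were above D0, but D14 replicate 2 stood far above the other two. For Fosb the log2 fold change was 2.60 (SE 0.56; edgeR adjusted p = 0.320), and 1.68 without D14 replicate 2.

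Fosl1, or Fra-1, is the Fos relative tied most closely to invasive tumour cells and to wounded epithelium. It was barely detected, with 4, 0 and 2 counts at D0 and 28, 46 and 0 counts at D14, and did not pass the count filter. In the libraries without a count, 3 counts would correspond to 0.192 CPM in both, which bounds the level for counting error only. The highest library had 2.93 CPM, so the D14 libraries differed among themselves, and no fold is given. Its model overlaps Ccdc85b on the other strand, which had 812 to 1855 counts a library.

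Jun, the prototype partner of Fos and the main substrate of the JNK kinases, was measured at 299.6, 289 and 224 CPM on D0 and at 343, 312 and 303 CPM on D14. An antisense gene, Junos, lies across it and had 8 to 28 counts a library. The days did not overlap, but D0 replicate 1 and D14 replicate 3 were almost equal. The log2 fold change was 0.24 (SE 0.17; edgeR adjusted p = 0.539), and without scaling factors the ranges overlapped, with 323 CPM in D0 replicate 1 and 293 CPM in D14 replicate 3.

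Junb, which often restrains Jun and is needed in endothelial and haematopoietic development, was at 99.9, 82.3 and 112 CPM in the D0 libraries and at 138, 88.8 and 75.9 CPM in the D14 libraries. The days overlapped fully, with D14 holding both the highest and the lowest library. Its log2 fold change was 0.04 (SE 0.24; edgeR adjusted p = 0.947), and it was −0.02 without scaling factors and −0.24 without D14 replicate 1. In GRCm38 the Junb model, on chromosome 8 from 84974484 to 84978718, overlaps Prdx2 on the other strand, which had 1747 to 2671 counts a library. How strand was treated in counting is not known here, so reads from the stretches where such opposite genes overlap cannot be told apart. For Junb and Prdx2 that stretch runs from 84974484 to 84974834 only.

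Jund, the steady member that opposes Jun in cell growth, was at 470.1, 536 and 785 CPM in the D0 libraries and at 632, 715 and 589.5 CPM in the D14 libraries. The antisense gene Gm11175 within it had 6 to 33 counts a library. It overlapped between days, and D0 replicate 3 was the highest library of all. Its log2 fold change of 0.11 (SE 0.22; edgeR adjusted p = 0.835) became 0.36 without D0 replicate 3 and −0.03 without D0 replicate 1.

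Atf3, a stress-induced member that as a homodimer represses its targets, had 6.22, 22.4 and 27.2 CPM at D0. At D14 it had 56.7, 117 and 45.1 CPM. All D14 libraries were higher, but the spread within each day was wide, 4.38-fold at D0 and 2.60-fold at D14. For Atf3 the log2 fold change was 1.97 (SE 0.57; edgeR adjusted p = 0.352), and 1.46 without D14 replicate 2.

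Maff, a small Maf protein that has no activation domain and binds DNA with CNC-type partners, was at 22.7, 42.0 and 61.9 CPM in the D0 libraries and at 131, 50.4 and 40.8 CPM in the D14 libraries. Only D14 replicate 1 was above the D0 range. The log2 fold change of 0.81 (SE 0.51; edgeR adjusted p = 0.500) was 0.12 without that library and 1.20 without D0 replicate 3.

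Batf, which pairs with Jun proteins and is known mainly from lymphocytes and dendritic cells, was at 5.76, 8.05 and 9.76 CPM in the D0 libraries and at 6.66, 6.19 and 4.61 CPM in the D14 libraries. It was the 1 tested member with a negative log2 fold change, −0.43 (SE 0.27; edgeR adjusted p = 0.497), and the days overlapped through D0 replicate 1. B cell markers were lower at D14 in 10 of 10 tested genes, with a summed level of 210 to 345 CPM at D0 and 135 to 194 CPM at D14. T and NK cell markers summed to 158 to 256 and 165 to 186 CPM, and dendritic cell markers, higher in 8 of 10, to 174 to 219 and 220 to 260 CPM. All markers of the 3 lists passed the count filter, and their part in the Batf level was not tested.

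**Figure D2:**
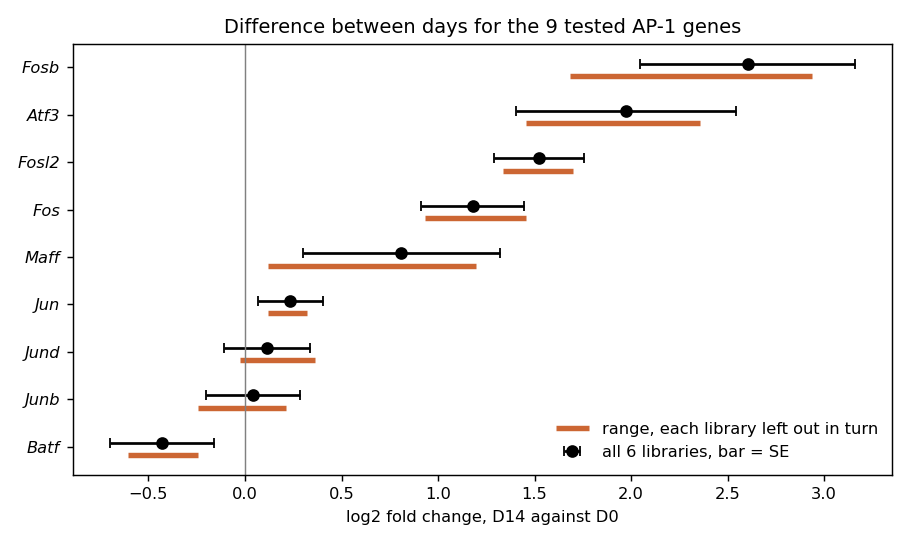
Log2 fold change of D14 against D0 for the 9 tested genes, with black points and bars for the edgeR estimate and its SE, and orange bars for the range when each of the 6 libraries was left out in turn. Fosb, Atf3, Fosl2 and Fos stay above 0.93 in every such fit, Maff spans 0.12 to 1.20, and the bars of Junb and Jund cross 0.

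The libraries of one day also differed from each other across the family. D0 replicate 1 was the lowest D0 library for 7 of the 10 genes, among them Fos, Fosb, Fosl2, Atf3 and Maff. D14 replicate 3 was the lowest D14 library for 9 of the 10, all but Fosb. D14 replicate 2 was the highest for Fos, Fosb, Fosl1, Jund and Atf3, and D14 replicate 1 for Fosl2, Jun, Junb, Batf and Maff. Across the 6 libraries, log2 CPM of Fos had a Pearson correlation of 0.97 with Fosl2, 0.94 with Atf3 and 0.86 with Fosb, but 0.48 with Jun and −0.09 with Junb. These are descriptions over 6 libraries that share the day as well as depth and cell make-up.

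Levels can be compared between genes only per transcript length, here as CPM per kilobase of the longest GENCODE transcript. On that scale Jund was the most abundant member on both days, with 358 ± 99.5 at D0 and 387 ± 38.2 at D14 (SD, n = 3). Jun followed with 85.0 ± 12.8 and 100.04 ± 6.55, and Junb with 54.1 ± 8.15 and 55.7, the latter from 41.98 to 76.02. The ranges of Jund, Jun and Junb did not overlap each other on either day. Fos, at 23.9 ± 8.70, was below Junb in all D0 libraries, and at 54.2 ± 2.57 its range overlapped that of Junb at D14. At D0 the neighbours Fos, Maff, Fosl2, Atf3 and Batf overlapped along the order, with Fosb at 1.84 ± 0.45 and Fosl1 clearly below. At D14 the order was Fos, Fosl2, Maff, Atf3, Fosb, Batf and Fosl1. Fosl2, Maff and Atf3 overlapped as neighbours there, as did Fosb, at 11.2 ± 9.17, and Batf, at 6.09 ± 1.12.

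The make-up of the family's transcripts can be given without any scaling between libraries, as a share of the summed CPM per kilobase of the 10 genes. The 4 Fos genes took 5.63% to 9.53% of it in the D0 libraries and 13.8% to 15.8% in the D14 libraries, so every D14 library was higher. The means were 7.06% ± 2.15 and 14.8% ± 1.00 (SD, n = 3). Without division by length the shares were 10.5% to 16.6% at D0 and 25.2% to 27.9% at D14, and the difference of the means was 13.3 in place of 7.75 percentage points. The 3 Jun genes took 83.0% to 90.04% at D0 and 72.6% to 77.6% at D14. Their summed level itself overlapped between days, at 431 to 603 CPM per kilobase (D0) and 490 to 575 (D14). The ratio of summed Fos to summed Jun family level was 0.0825 ± 0.0283 at D0 and 0.199 ± 0.0161 at D14, so Jun family transcripts were in large excess on both days. Fosl2 relative to Fos was 0.563 to 0.714 at D0 and 0.675 to 0.873 at D14, which overlap. Atf3 took 0.655% to 2.04% at D0 and 3.60% to 7.46% at D14. The share of Batf was 1.26% to 1.53% at D0 and 0.764% to 0.905% at D14, so it was lower in every D14 library, although its CPM overlapped. These shares come from the same values that the family was chosen on and carry no test. With 3 libraries a day, an exact permutation test of 1 value could give no p below 0.1.

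**Figure D3:**
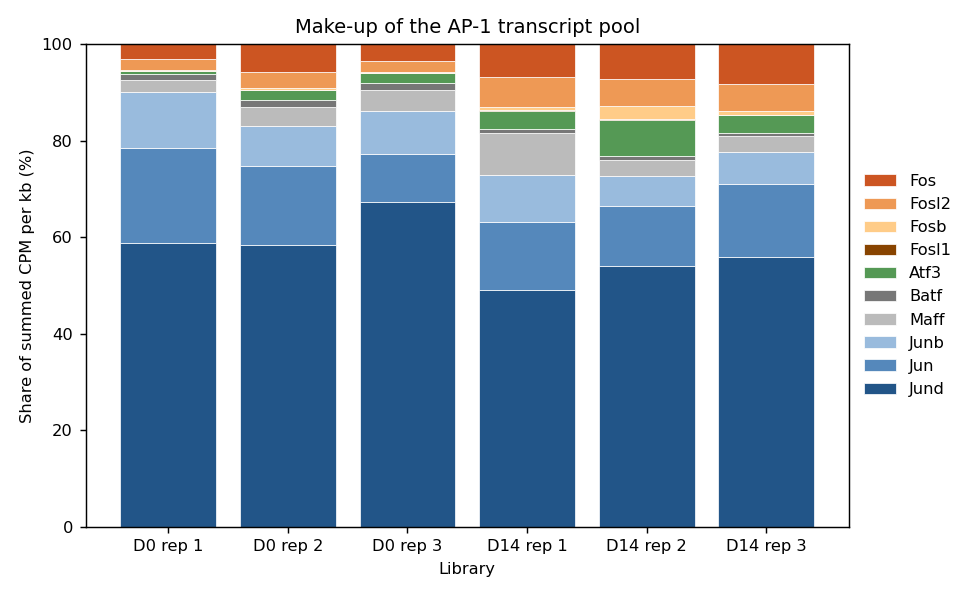
Share of each gene in the summed CPM per kilobase of the 10 genes, in percent, stacked to 100 for each library. Blue shades are Jun genes and orange to brown shades Fos genes. Jund takes 49.1% to 67.2% of every bar, and the orange part is larger in the 3 D14 bars than in the 3 D0 bars.

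Other zipper proteins that pair with the family or share its DNA sites were mostly a little higher at D14. Of 22 such genes all were tested, 16 were higher and 6 lower, the median log2 fold change was 0.20, and none passed the adjusted p of 0.05. An unadjusted p under 0.05 was reached by 6 of the 22, all higher. Over all tested genes the share was 12.6% in either direction and 5.48% on the higher side. The 6 were Mafk, Bach1, Nfil3, Crem, Atf4 and Batf2, listed after their values were seen. Mafk, a small Maf protein like Maff, was at 97.0, 114 and 114 CPM (D0) and at 179.7, 168 and 154 CPM (D14; log2 fold change 0.63, SE 0.14; edgeR adjusted p = 0.326). Bach1, which pairs with small Maf proteins and represses haem and oxidative stress genes, had 61.4, 74.0 and 52.1 CPM and 113, 94.0 and 106 CPM (0.74, SE 0.17; edgeR adjusted p = 0.326). Both were above D0 in every D14 library. DESeq2 called these 2 of the 22 higher, beside 1.03% of genes given an adjusted p. A positive log2 fold change was found in 46.9% of all tested genes. As this list was chosen with earlier results of these data known, nothing is read from its counts. Cebpb and Atf4 had the highest CPM of the list, not adjusted for length. Cebpb had 275 ± 157 and 285 ± 32.2 CPM, with 441 CPM in D0 replicate 3. Atf4, the effector of the integrated stress response, had 158.5 ± 19.1 and 216 ± 36.1 CPM (SD, n = 3).

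Kinases and factors that act on AP-1 promoters and proteins gave 16 higher and 7 lower of 23 tested, with a median of 0.25 and none past the threshold. An unadjusted p under 0.05 was reached by 3 of the 23. The share over all tested genes was 12.6% in either direction and 5.48% on the higher side. The list was chosen with earlier results known, so the count is no result about it. All 3 were higher: Srf, Rps6ka3 and Map2k4, the last named after its values were seen. Srf, the factor that binds the CArG box, was at 60.7, 71.8 and 53.7 CPM (D0) and at 87.2, 105 and 81.1 CPM (D14), higher in every library (0.56, SE 0.17; edgeR adjusted p = 0.362). Rps6ka3, the kinase RSK2, had 83.6 ± 30.2 and 134 ± 9.61 CPM (0.68, SE 0.27). Mapk3, a kinase of the growth factor cascade and the gene with the highest CPM of the list, differed on the log2 scale by −0.05 (SE 0.15). Kinase messengers say nothing of kinase activity.

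Genes of messenger decay and protein turnover, which limit how long AP-1 products last, were higher in 10 of 12 with a median of 0.23, and none passed. Btg2, which recruits the deadenylase to messengers and is itself an immediate early gene, was at 157, 323 and 288 CPM (D0) and at 547, 389 and 410.2 CPM (D14; 0.81, SE 0.29; edgeR adjusted p = 0.364). Btg2 was the 1 gene of the 12 with an unadjusted p under 0.05, and nothing is read from that count. Among all tested genes 12.6% reached that in either direction and 5.48% on the higher side. Itch, a ubiquitin ligase for Jun and Junb, stood at 0.38 (SE 0.18), and Zfp36l1, which binds AU-rich messengers, at 0.08 (SE 0.15).

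Textbook targets of AP-1 gave values in both directions. Of 31 tested, 22 were higher and 9 lower, with a median of 0.19, none past the threshold and a summed level that overlapped between days. Among all tested genes 46.9% had a positive log2 fold change. As this list was also chosen with earlier results known, nothing is read from its counts. Plaur, the urokinase receptor, was at 43.3, 58.0 and 68.0 CPM (D0) and at 129, 135 and 84.5 CPM (D14; 1.04, SE 0.24; edgeR adjusted p = 0.326). It was higher in every D14 library, and DESeq2 called it. Named after their values were seen, Mmp14 was also on the higher side with an unadjusted p under 0.05, and Csf2 and Sprr1a, both scarce, were on the lower side. Vim and Fabp4, with the highest CPM of the list, differed on the log2 scale by 0.20 (SE 0.24) and 0.14 (SE 1.29), and Fabp4, also an adipocyte and endothelial gene, ran from 19.6 to 502 CPM within D14 alone.

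**Figure D4:**
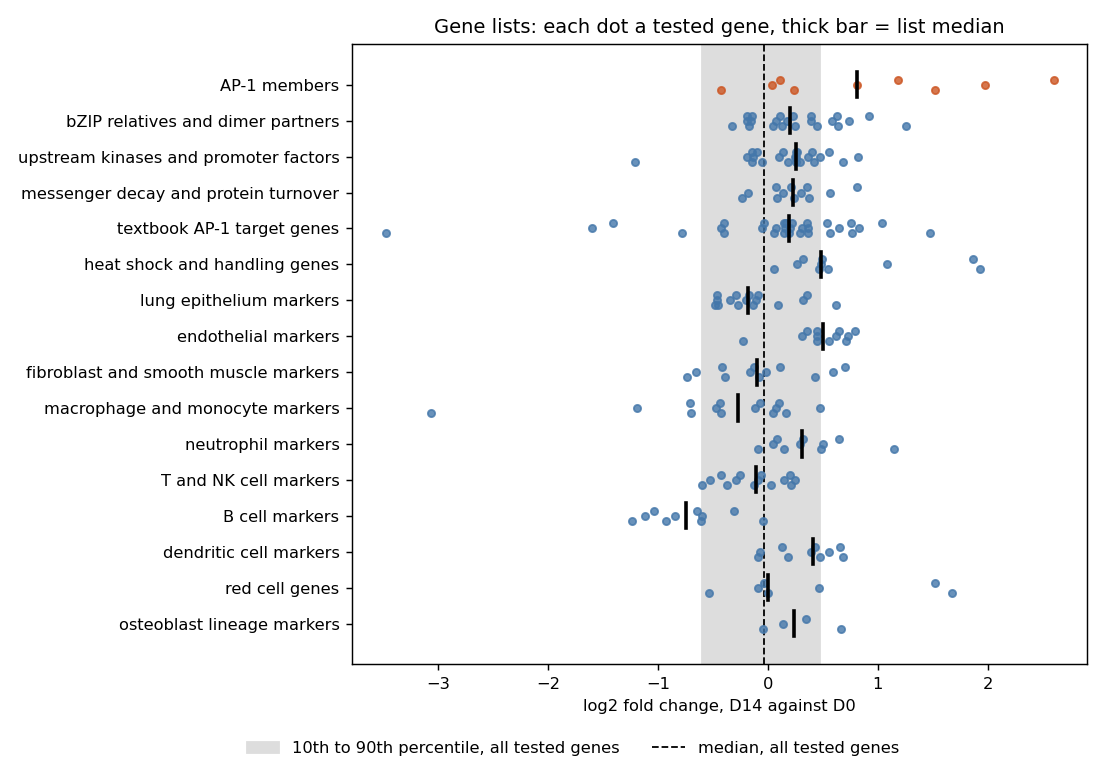
Log2 fold change of D14 against D0 for each tested gene of each list, with thick bars at the list medians, a grey band from the 10th to the 90th percentile of all tested genes and a dashed line at their median. The 10 AP-1 genes, orange, have 9 tested members with a median of 0.81. All 10 heat shock genes and 11 of 12 endothelial markers lie above 0, and all 10 B cell markers below.

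Most heat shock genes and endothelial markers had higher values at D14, as the Fos genes and Atf3 did, but no gene of either list passed the adjusted p of 0.05 in edgeR. DESeq2 called 4 of the 10 heat shock genes and 1 of the 12 endothelial markers higher, beside 1.03% of genes given an adjusted p. A positive log2 fold change was found in 46.9% of all tested genes. These lists were also chosen with earlier results known, so nothing is read from the counts. Heat shock genes, which heat, proteotoxic stress and tissue handling induce, were higher in 10 of 10, with a median of 0.49 and a summed level of 854 to 1098 CPM at D0 and 1318 to 1557 CPM at D14. The sum was highest in D14 replicate 2, the library in which Fosb and Atf3 were also highest. This is not particular to heat shock genes. Within D14 the sums of neutrophil markers (310 CPM) and lung epithelial markers (55376 CPM) were also highest there, and that of endothelial markers in D14 replicate 3. Hsph1, a chaperone of the HSP110 type, was at 53.1, 42.8 and 38.1 CPM (D0) and at 79.5, 102 and 104 CPM (D14; 1.09, SE 0.18; edgeR adjusted p = 0.189). Hspa1a, the inducible HSP70, had 7.27, 14.4 and 9.97 CPM and 65.1, 39.1 and 15.9 CPM (1.93, SE 0.50; edgeR adjusted p = 0.347). Hspa1a is uncertain, since its near-identical copy Hspa1b can share its reads. Hspa1a was highest in D14 replicate 1, and Hspa8 and Hsp90aa1 in D14 replicate 2. Hspa8 and Hsp90aa1, with the highest CPM of the list, differed on the log2 scale by 0.48 (SE 0.22) and 0.32 (SE 0.19). Endothelial markers were higher in 11 of 12, with a summed level of 7059, 5144 and 3826 CPM in D0 replicates 1 to 3 and 7446 to 7993 CPM at D14. D0 replicate 1 was thus close to the D14 libraries, and the lowest was D0 replicate 3, which stood apart in its cell make-up. All genes of both lists passed the count filter, and their part in the levels of the AP-1 genes was not tested.

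The genes whose log2 CPM followed that of Fos most closely over the 6 libraries were Lgals3bp, Slc31a1, Tiparp, Ankrd13a and Sik1. Their Pearson correlations were 0.994, 0.993, 0.991, 0.989 and 0.986. The comparison covered 10544 genes outside the family with a mean of at least 10 CPM. Symbols that start with Gm or AC or end in Rik, and repeated rows of a symbol, were left out of it. Sik1, a salt-inducible kinase, was at 66.0, 171 and 142 CPM (D0) and at 380.4, 303 and 338 CPM (D14), and Tiparp, a mono-ADP-ribosyltransferase, 36.6, 69.7 and 58.6 CPM and 97.4, 105 and 112 CPM. Like Fos, both were lowest in D0 replicate 1 and highest at D14. Picked as the highest of so many over 6 libraries, they are given as a description.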

How the data were processed

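Bulk RNA sequencing of lungs was deposited as 1 table of estimated counts per gene symbol, and all of its value columns belonged to the 6 samples. The submitters' processing notes name HISAT2 2.1.0, CASAVA 1.8, edgeR, StringTie 1.3.4b and the build GRCm38, without their roles or order. Not given in the sources used here were the tool that made the counts, the annotation release and the use of strand. Only lines with a whole count in every library were kept, so rounding altered none. Of 29757 lines, 4 were dropped and are not analysed here, 2 with empty values and 2 with values that were not whole counts. Another 50 rows repeat a symbol and were kept apart.

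Genes were tested with edgeR 4.0.16 in R 4.3.3 on all 6 libraries: TMM factors, default count filter, robust quasi-likelihood F test, two-sided, no covariate, Benjamini-Hochberg over 17686 genes at 0.05. Each SE was obtained as log2 fold change over the root of F. Library sizes for CPM were TMM-scaled, and correlations used log2 CPM with prior count 2. Lengths and positions came from GENCODE vM21 and promoters from RefSeq, both GRCm38. The edgeR fit was also run on counts simulated from the means and spread of these data, with no shift in cell make-up. DESeq2 was not run on them, so they do not bear on the difference between edgeR and DESeq2. Alternatives were DESeq2 1.42.0, limma-voom (limma 3.58.1), RLE factors, no factors, other count filters, no robust estimation, a replicate block, summed repeated symbols and each library left out.

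The members and lists were chosen with earlier results of these data known. The genes named were all members; in each other list of AP-1 partners, regulators, targets and heat shock genes those past the threshold, the 2 with the smallest p and the 2 most abundant; and the 5 genes most correlated with Fos. The TGACATCA motif was added after the sequences were seen. Some genes that this rule names are not reported here.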

Additional observations from a re-analysis of the deposited data

How the results depend on the processing

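Fos, Fosb, Fosl2, Atf3, Jun and Maff kept a positive and Batf a negative log2 fold change under all 15 alternatives. Junb reversed to −0.0182 without scaling factors and ran from −0.24 to 0.21 when each library was left out, and Jund from −0.0274 (without D0 replicate 1) to 0.361. The count of members called was 0 in edgeR and limma-voom and 4 with DESeq2. Their median log2 fold change ran from 0.19 (without D14 replicate 1) to 1.20 (without D0 replicate 3). The number with all D14 libraries above D0, in alternatives chosen after seeing the data, ran from 4 to 6. With the main settings it was 5, beside 10.9% of all tested genes, and the share was not computed for the alternatives. Leaving out a library makes such a separation easier, so nothing is read from this number. Over all genes, 3 were called higher and 3 lower. DESeq2 gave 168 and 106, the fit with no low count filter 22 higher, and leaving out libraries 0 to 19 higher (19 without D0 replicate 3, 0 without any of the other 5) and 0 to 3 lower (1 without D0 replicate 2, 0 without any D14 library). The difference in Fos family share was 7.75 percentage points, and 13.3 without division by length. With the replicate number as a block 0 genes were called higher and 0 lower. The numbers were not used as pairs because they are not stated to mark shared animals or batches. Deviations of same-numbered libraries had correlations of 0.119, −0.055 and −0.097, which cannot settle whether a pairing exists. The cause of these shifts was not tested. Fosl1 was too scarce for a fold change at this depth.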
